A study of Mus musculus with 8 samples.

Results

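The NDRG (N-myc downstream regulated gene) family has 4 members in the mouse, Ndrg1, Ndrg2, Ndrg3 and Ndrg4. They were taken as the probes that carry one of these gene names in the deposited array files, which gave 7 of 41174 probes: 1 for Ndrg1, 1 for Ndrg2, 3 for Ndrg3 and 2 for Ndrg4. The arrays measured total RNA of whole mouse embryos at E9.0 (embryonic day 9.0), from 4 wild-type pools and 4 Arid3b-null pools of 3 to 4 embryos each. Arid3b is a DNA-binding protein of the ARID family. The labels give neither the allele, the strain nor the litters, so the pools are named here only by genotype and number. The p-values below set the difference between genotypes against the spread between pools of the same genotype. A pool averages all tissues of its embryos, so more cells of a type and more RNA per cell cannot be told apart.

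Each pool was hybridised to 1 one-colour Agilent array. Pools 1 and 2 of both genotypes were on one slide and pools 3 and 4 on a second; on both slides positions 1 and 2 carried wild-type RNA and positions 3 and 4 null RNA, so genotype and position cannot be told apart. The share of probes well above background was 59.9% to 64.1%. The Arid3b probe read 39.2% of its wild-type mean in the null pools (log2 difference -1.35 ± 0.15 SE, limma adjusted p = 0.00577, n = 4 pools per group); the single null pools stood at 36.1%, 34.5%, 35.1% and 54.2% of the wild-type mean, and the labels do not say whether the probe lies in a deleted part. Levels below are log2 of the processed signal minus the 75th percentile of the same array (relative log2 level). The family was picked with the null against wild-type differences of these arrays known, so its members are described without a test.

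NDRG proteins share an alpha/beta-hydrolase fold but have no known catalytic activity. Ndrg1 was named for its repression by N-myc, and its transcript is a well-known target of low oxygen and other cell stress; the protein is phosphorylated by SGK1 and then by GSK3. Ndrg2 is known from astrocytes and metabolic tissues, Ndrg3 encodes a protein that binds lactate and is destroyed when oxygen is plentiful, and Ndrg4 is known from heart and brain.

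The probes of the family have little sequence in common with one another, whether for the same gene or for different genes. They were not compared with the transcripts of the other members, so binding of a probe to another member's transcript was not tested. All 7 probes are 60 bases long, and the longest run of bases shared by any of the 21 probe pairs, on either strand, was 8. The first 30 bases of each are printed here, 5′ to 3′, as the files give them.
Ndrg1: agttgctagaggaaaagtagttatgcccta
Ndrg2: tcaggagaaggtttgctggtgggtcagcga
Ndrg3, probe 1: tggaagccaagacaccttgaaggtgacttt
Ndrg3, probe 2: gaatgtaattctcgcctcgaccctataaat
Ndrg3, probe 3: ccaaactctcaggttttaccaccaacattg
Ndrg4, probe 1: gaggtggtagaactaatcccttactgtaga
Ndrg4, probe 2: ccgccatgctcccgagtgtggtacagcact
In the files' mm7 build, the Ndrg1 probe lies at chr15:67013174-67013233 (minus strand) and the Ndrg2 probe at chr14:47239243-47239302 (minus strand). The Ndrg3 probes lie on the minus strand at chr2:156668531-156668590, chr2:156675817-156675876 and chr2:156681249-156684881. The Ndrg4 probes lie on the plus strand at chr8:94303561-94303620 and chr8:94295720-94295908. The third Ndrg3 probe and the second Ndrg4 probe align over 3633 and 189 bases, longer than the probe itself, so each crosses an intron. Exon and UTR positions in mm7 were not used here. The second Ndrg3 probe is annotated to the cDNA AK036277 and the other 2 to the Ndrg3 RefSeq transcript.

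Ndrg1 and Ndrg2 were higher in Arid3b-null embryos, Ndrg4 was slightly higher and Ndrg3 slightly lower. Of the 7 probes, 6 passed the filter on dim probes (a probe had to be well above background on 4 or more of the 8 arrays). On 4 of these 6 the wild-type and null pools did not overlap, 3 with the null pools above (Ndrg1, Ndrg2 and the first Ndrg4 probe) and 1 with the null pools below (the third Ndrg3 probe). Over all 17099 genes tested the groups did not overlap for 16.1%, with the null pools above for 8.08% and below for 8.06%. Because the family was picked on this contrast, nothing is read from the members' count against that background.

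**Figure D1:**
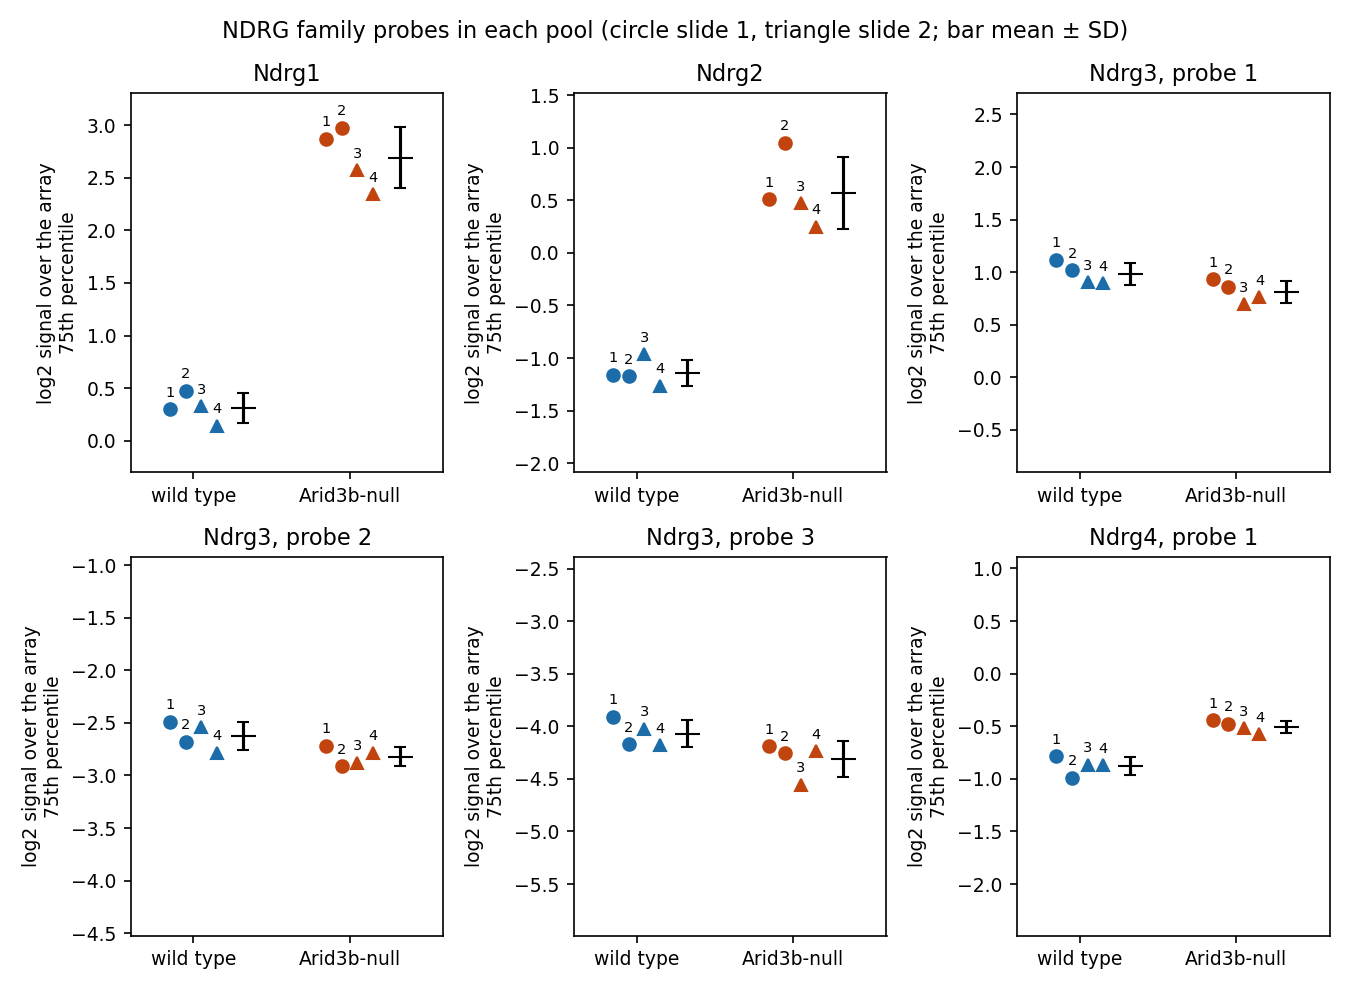
Relative log2 level (vertical axis, log2 of the processed signal minus the array's 75th percentile) of the 6 kept NDRG probes, 1 panel each, by genotype (horizontal axis); numbered points are single pools, circles for the slide of pools 1 and 2 and triangles for the other, and bars are the mean ± SD of 4 pools. The null pools sit clearly above the wild-type pools for Ndrg1 (2.69 against 0.31) and Ndrg2 (0.57 against -1.14), slightly above for the first Ndrg4 probe, and at or slightly below for the 3 Ndrg3 probes.

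Ndrg1 had the largest difference in the family. Its processed signal was 2097, 1863, 2106 and 1638 in wild-type pools 1 to 4 and 11129, 10080, 9284 and 7805 in null pools 1 to 4. On the relative log2 scale the wild-type pools read 0.30, 0.48, 0.33 and 0.14 and the null pools 2.87, 2.98, 2.57 and 2.34. Every null pool was therefore far above every wild-type pool, and the lowest null pool stood 1.87 log2 units above the highest wild-type pool. The group means were 0.31 ± 0.14 and 2.69 ± 0.29 (SD, n = 4 pools each), a difference of 2.38 or 5.21-fold. Of the 17099 genes tested, 10 including Ndrg1 had a difference at least this high, while 0.866% of genes stood 2-fold or more above wild type in the null pools and 0.257% stood 3-fold or more. The null pools were the more spread group for Ndrg1, with pools 1 and 2 above pools 3 and 4.

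The Ndrg1 difference was present in each same-numbered pair and on each slide. Null over wild-type ratios were 5.95, 5.66, 4.73 and 4.61 in pairs 1 to 4. The difference was 2.54 log2 units on the slide of pools 1 and 2 and 2.22 on the slide of pools 3 and 4. The slide of pools 1 and 2 gave the higher value.

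Ndrg2 was the other member with a large difference. Its processed signal was 763, 594, 860 and 621 in wild-type pools 1 to 4 and 2164, 2645, 2173 and 1823 in null pools 1 to 4. The relative log2 levels were -1.16, -1.17, -0.96 and -1.26 in the wild-type pools and 0.51, 1.05, 0.47 and 0.25 in the null pools. The groups did not overlap, and null pool 2 was the highest of all. The means were -1.14 ± 0.12 and 0.57 ± 0.34 (SD, n = 4 pools each), a difference of 1.71 or 3.27-fold, and the gap between the nearest pools of the groups was 1.21. Counting Ndrg2, 36 genes had a difference at least as high.

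By pair, the null over wild-type ratio of Ndrg2 was 3.18, 4.66, 2.71 and 2.84 for pools 1 to 4. Pair 2 stood above the other 3 pairs. The difference was 1.94 log2 units on the slide of pools 1 and 2 and 1.47 on the slide of pools 3 and 4, the same order as for Ndrg1.

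Ndrg4 differed by much less. The processed signal of its first probe was 989, 674, 921 and 812 in wild-type pools 1 to 4 and 1118, 919, 1093 and 1031 in null pools 1 to 4. Before scaling the ranges overlapped, since null pool 2 read below wild-type pools 1 and 3. On the relative log2 scale the wild-type pools read -0.78, -0.99, -0.87 and -0.87 and the null pools -0.44, -0.48, -0.52 and -0.58. After scaling to each array's 75th percentile all 4 null pools were above all 4 wild-type pools, by at least 0.21. The means were -0.88 ± 0.08 and -0.50 ± 0.06 (SD, n = 4 pools each), a difference of 0.38 or 1.30-fold. The pair ratios were 1.27, 1.43, 1.27 and 1.23. The difference was 0.43 log2 units on the slide of pools 1 and 2 and 0.32 on the slide of pools 3 and 4.

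The second Ndrg4 probe was too dim to add to this. Only wild-type pools 3 and 4, and 0 null pools, read it well above background. Its relative log2 levels were -6.56, -6.25, -5.65 and -5.64 in the wild-type pools and -5.78, -5.97, -5.96 and -5.95 in the null pools. The groups overlapped and no fold is given.

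Ndrg3 was the member with the smallest difference, and all 3 of its probes had the lower mean in the null pools. The first probe read 3697, 2712, 3141 and 2769 in wild-type pools 1 to 4 and 2896, 2329, 2537 and 2606 in null pools 1 to 4 as processed signal. Its relative log2 levels were 1.12, 1.02, 0.90 and 0.90 in the wild-type pools and 0.93, 0.86, 0.70 and 0.76 in the null pools. Null pool 1 lay among the wild-type pools, so the groups overlapped. The means were 0.98 ± 0.11 and 0.81 ± 0.10 (SD, n = 4 pools each), which put the null pools at 88.8% of wild type. By pair the null pools stood at 87.8%, 89.9%, 86.7% and 91.0% of the same-numbered wild-type pool, and both slides gave a log2 difference of -0.17.

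The other 2 Ndrg3 probes gave the same direction. The second probe read -2.49, -2.68, -2.54 and -2.79 in the wild-type pools and -2.72, -2.91, -2.88 and -2.78 in the null pools as relative log2 level. Its means were -2.62 ± 0.13 and -2.82 ± 0.09 (SD, n = 4 pools each), or 87.1% of wild type, with overlapping groups; in pair 4 the 2 pools were level. The third probe read -3.91, -4.17, -4.02 and -4.18 in the wild-type pools and -4.19, -4.26, -4.56 and -4.24 in the null pools. Its means were -4.07 ± 0.13 and -4.31 ± 0.17 (SD, n = 4 pools each), or 84.7% of wild type. Its groups were separated by only 0.01 log2 units, less than the spread within either group.

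Among the null pools, pool 4 was the lowest for Ndrg1, for Ndrg2 and for the first Ndrg4 probe. The order of the null pools was 2, 1, 3, 4 from high to low for both Ndrg1 and Ndrg2, and 1, 2, 3, 4 for Ndrg4. Null pool 4 was also the null pool with the most Arid3b signal, at 54.2% of the wild-type mean. Wild-type pool 4 was likewise the lowest wild-type pool for Ndrg1 (0.14) and Ndrg2 (-1.26), but not for the first Ndrg4 probe. Null over wild-type ratios in pairs 3 and 4 were 4.73 and 4.61 for Ndrg1 and 2.71 and 2.84 for Ndrg2. They were 1.27 and 1.23 for the first Ndrg4 probe. For no Ndrg3 probe was null pool 4 the lowest null pool. Without null pool 4, the Ndrg1 difference was 2.50 and the Ndrg2 difference 1.82. A relation between remaining Arid3b signal and the NDRG genes was not tested.

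**Figure D2:**
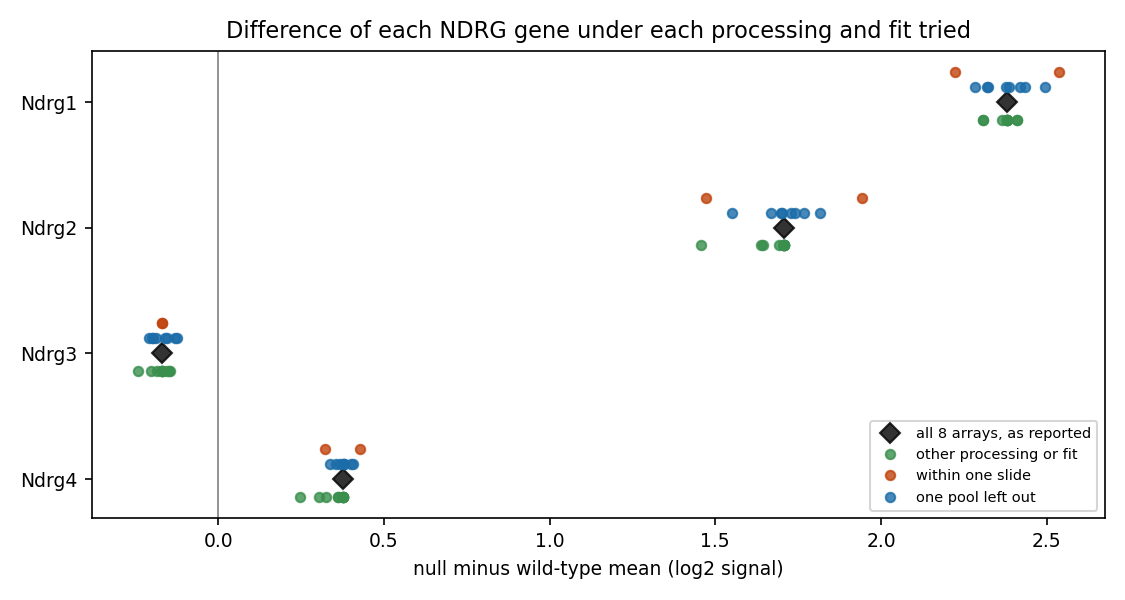
Null minus wild-type difference in log2 level (horizontal axis) of the probe that stands for each NDRG gene, for all 8 arrays as reported (diamond) and for 20 alternatives (points, coloured by other processing or fit, within one slide, and one pool left out). Ndrg1 lies between 2.22 and 2.54, Ndrg2 between 1.46 and 1.94, Ndrg4 between 0.25 and 0.43, and Ndrg3 between -0.24 and -0.13.

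The 4 differences kept their direction under 20 alternatives in scaling, background correction, probe filter, source of the values, block, slide and left-out pool. Ndrg1 ranged from 2.22 to 2.54, Ndrg2 from 1.46 to 1.94, Ndrg3 from -0.24 to -0.13 and Ndrg4 from 0.25 to 0.43. In the authors' deposited value table, which holds 6 of the 7 probes, Ndrg1 differed by 2.41 (5.31-fold), Ndrg2 by 1.64 and the first Ndrg4 probe by 0.33. The 3 Ndrg3 probes differed there by -0.16, -0.21 and -0.19.

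The genes whose pattern over the pools was most like that of Ndrg1 were picked by the root mean square difference between log2 profiles over the 8 arrays, each centred on its own mean. Over 13877 named genes the median of this measure was 1.23 log2 units. The nearest 6 were Creg2 (0.221), Ddit4 (0.231), Ier3 (0.248), Stc1 (0.252), Nrn1 (0.274) and Vldlr (0.285). Ddit4 encodes an inhibitor of mTORC1 signalling induced by stress, Ier3 is an immediate early gene, Stc1 encodes the secreted glycoprotein stanniocalcin, Nrn1 encodes neuritin, and Vldlr encodes a lipoprotein receptor that also binds reelin. Since a large difference between genotypes is what makes a profile like that of Ndrg1, these genes carry no test here.

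In the null pools these 6 genes were higher by 3.94-fold for Creg2, 3.93-fold for Ddit4, 7.06-fold for Ier3, 4.59-fold for Stc1, 6.11-fold for Nrn1 and 3.79-fold for Vldlr. Several of these sizes depended on the background correction: with normexp the log2 difference was 0.75 instead of 1.98 for Creg2, 0.44 instead of 2.20 for Stc1, 1.53 instead of 2.61 for Nrn1 and 1.91 instead of 2.82 for Ier3. In the authors' deposited table it was 1.36 for Creg2, 1.03 for Stc1, 2.14 for Nrn1 and 2.45 for Ier3. The other 2, Ddit4 and Vldlr, gave 2.06 and 1.79 with normexp. Stc1 was well above background in only 3 of 4 wild-type pools. Ndrg2 was 13th nearest to Ndrg1, at 0.365. Ndrg4 ranked 912 at 1.02 and Ndrg3 ranked 9645 at 1.29, the first nearer and the second farther than the median gene. Null pool 4 was the lowest null pool for 5 of the 6 nearest genes, as it was for Ndrg1, and for Creg2 it was null pool 3. Because the 6 were picked for closeness to Ndrg1 over these same pools, a like order of the null pools is partly built in.

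**Figure D3:**
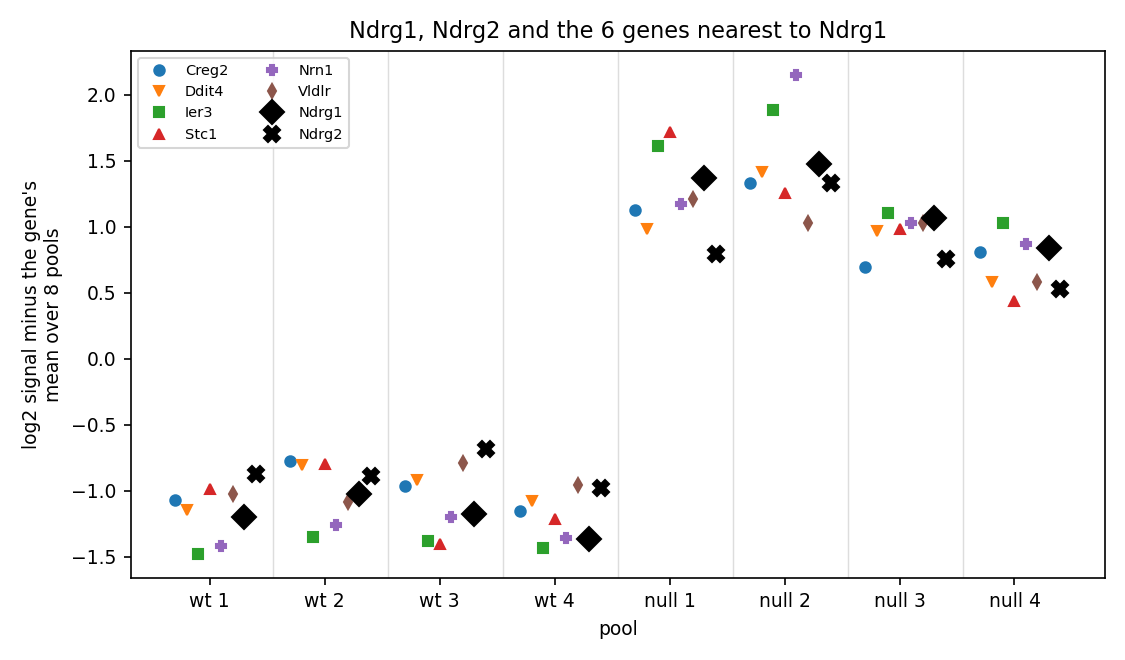
Log2 level minus the gene's own mean over the 8 pools (vertical axis) for Ndrg1, Ndrg2 and the 6 genes with the smallest root mean square difference from Ndrg1, in each pool (horizontal axis); each symbol is 1 gene in 1 pool. All 8 genes lie below 0 in the 4 wild-type pools and above 0 in the 4 null pools.

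Of the genes around the family, those of the Myc network bear on the name of the family. Of 13 genes tested, 1 was higher and none lower in the null pools at a limma adjusted p under 0.05. Over all genes tested 4.20% were called (718 genes, 2.85% higher and 1.35% lower), and 2343 genes with the replicate block; of the 718, 67.8% were higher, against 79.6% of the 157 called without scaling between arrays. No gene passed under normexp background correction, where 740 had an unadjusted p under 0.05, or within either slide alone (1881 and 2861), so none of the list calls below held there. The median log2 difference of the list was -0.05, against -0.01 over all genes. The gene that rose was Mxi1, which encodes a MAX partner that opposes MYC, with a difference of 0.65 ± 0.10 (SE), 1.56-fold (limma adjusted p = 0.0172, n = 4 pools per group). The Mxi1 call was lost when wild-type pool 1, 2, 3 or 4 or null pool 3 was left out, with adjusted p from 0.0531 to 0.0668, and also without scaling (0.135) and without the filter on dim probes (0.0517). Mycn, which encodes N-myc, differed by 0.15 (adjusted p = 0.361, limma) and Myc by -0.06.

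None of the 11 tested genes for kinases that act on NDRG1, and their partners, passed the limma test, and 3 had an unadjusted p under 0.05. Their median difference was -0.13. The smallest p was that of Gsk3a, a kinase that follows SGK1 on NDRG1, at -0.22 ± 0.09 (SE, limma adjusted p = 0.192, n = 4 pools per group). Sgk1 itself differed by 0.11. With the replicate number as a block, 1 of the 11 passed, Mapkap1, which encodes a subunit of the mTORC2 complex, with a lower mean in the null pools (limma adjusted p = 0.0492).

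Of 10 genes for oxygen-sensing factors 9 were tested, and without a block 2 rose and none fell; Epas1 did not pass the filter on dim probes. Both that rose encode prolyl hydroxylases that mark HIF-alpha for destruction and that are themselves known targets of HIF. Egln3 rose by 1.13 ± 0.18 (SE), 2.19-fold (limma adjusted p = 0.0195), and Egln1 by 0.84 ± 0.18 (SE), 1.79-fold (limma adjusted p = 0.0430). Leaving out wild-type pool 1, 2, 3 or 4 or null pool 3 ended the Egln3 call (adjusted p from 0.0554 to 0.0702), and leaving out any pool but null pool 4 ended the Egln1 call (adjusted p from 0.0727 to 0.122). The Egln1 call was also lost without scaling (limma adjusted p = 0.0685), and both were lost without the filter on dim probes (0.103 for Egln1 and 0.0534 for Egln3). With the replicate number as a block, Egln2, another prolyl hydroxylase, passed as lower in the null pools, at -0.23 (limma adjusted p = 0.0488, against 0.541 without the block). Hif1a, the oxygen-regulated subunit of HIF-1, differed by -0.28, and the median of the list was -0.11.

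The list of other oxygen-regulated genes holds known targets of low oxygen, as Ndrg1 is. Of its 26 members, all tested, 19 rose and none fell in the null pools at a limma adjusted p under 0.05. Over all genes tested 2.85% rose and 1.35% fell. The other 7 members were not called. Pfkfb4 alone had the lower mean in the null pools, at -0.23 (limma adjusted p = 0.162), with every null pool below every wild-type pool. The median difference of the list was 0.84 (1.05 on the slide of pools 1 and 2 and 0.66 on the other). Bhlhe40, a transcriptional repressor, rose 8.30-fold (limma adjusted p = 2.97e-04, n = 4 pools per group), a log2 difference of 3.05 that was 2.02 with normexp. Bnip3, which acts in the removal of mitochondria, rose 2.63-fold (limma adjusted p = 0.0022), and Ddit4 rose 3.93-fold (limma adjusted p = 0.00294). The count of called members fell to 12 when wild-type pool 1, wild-type pool 4 or null pool 3 was left out. The list was drawn up with earlier results of these arrays known, so its count is no independent evidence of its direction.

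Markers of tissues that could hold NDRG transcripts, or that a dissected embryo could carry, are given beside these values. For heart muscle, where Ndrg4 is known, 13 of 14 markers were tested and none passed the limma test, while 4 had an unadjusted p under 0.05. All 13 had the higher mean in the null pools, with a median difference of 0.22 (0.30 on the slide of pools 1 and 2 and 0.17 on the other). Over all 17099 genes tested, 8335 had the higher mean in the null pools and 8764 the lower. The summed level of a list is here the log2 of the sum of its genes' linear relative levels, in which the brightest genes weigh most. For heart muscle it was 8.05 to 8.10 in the wild-type and 8.25 to 8.47 in the null pools. The smallest p was that of Myh7, a myosin heavy chain, at 0.35 ± 0.12 (SE, limma adjusted p = 0.145, n = 4 pools per group); a block on the replicate number gave 0.0248, the 1 heart call of that fit. The part of heart muscle in the Ndrg4 difference was not tested.

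For early neurons all 12 markers were tested, and 2 fell while none rose in the null pools. All 12 had the lower mean in the null pools, as did 8764 of all 17099 genes tested, and 5 had an unadjusted p under 0.05 (limma). The summed level was 2.91 to 3.35 in the wild-type and 2.71 to 2.83 in the null pools, and the median difference was -0.40 (-0.51 on the slide of pools 1 and 2 and -0.33 on the other). Nhlh1, a neuronal transcription factor, fell by 0.80 (limma adjusted p = 0.0331); that call was lost without any one pool other than null pool 1, with adjusted p from 0.0600 to 0.0970, and also without scaling (0.0873) and without the filter on dim probes (0.0854). Neurod4, a proneural factor, was well above background in 4 wild-type and 0 null pools and was at least 1.31-fold lower in the null pools (limma adjusted p = 0.0132), with adjusted p of 0.0527 and 0.0539 without wild-type pool 4 or null pool 3 and 0.0706 in the authors' deposited table. Ndrg2 and Ndrg4, both known from the nervous system, were higher in the same pools. The part of neurons in these differences was not tested.

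Of 8 primitive red cell markers tested, 1 fell and none rose, and 3 had an unadjusted p under 0.05. All 8 had the lower mean in the null pools, as did 8764 of all 17099 genes tested. The median difference of the 8 was -0.28 (-0.44 on the slide of pools 1 and 2 and -0.19 on the other). The one that fell was Klf1, an erythroid transcription factor, by 0.88 (limma adjusted p = 0.0377); the call was lost without any one pool other than null pool 4, with adjusted p from 0.0620 to 0.110, and also without scaling (0.0992) and without the filter on dim probes (0.0915). Klf1 differed by -1.26 on the slide of pools 1 and 2 and by -0.51 on the other. The summed level was 8.04 to 8.71 in the wild-type and 7.76 to 8.56 in the null pools.

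Tissues outside the embryo proper gave no call. For yolk sac endoderm 0 of 11 markers passed the limma test, with 0 at an unadjusted p under 0.05, and the summed level was 3.70 to 4.64 in the wild-type and 3.67 to 4.69 in the null pools. The smallest p there was that of Rbp4, a retinol carrier, at an adjusted p of 0.457 (limma). For trophoblast and placenta 4 of the 8 markers on the array were tested and none passed, with 1 at an unadjusted p under 0.05 (Ascl2, 0.54, limma adjusted p = 0.173). The defining markers Tpbpa, Gcm1, Ctsq and Synb did not pass the filter on dim probes, nor did the 3 decidua markers Prl8a2, Prl3c1 and Pgr.

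**Figure D4:**
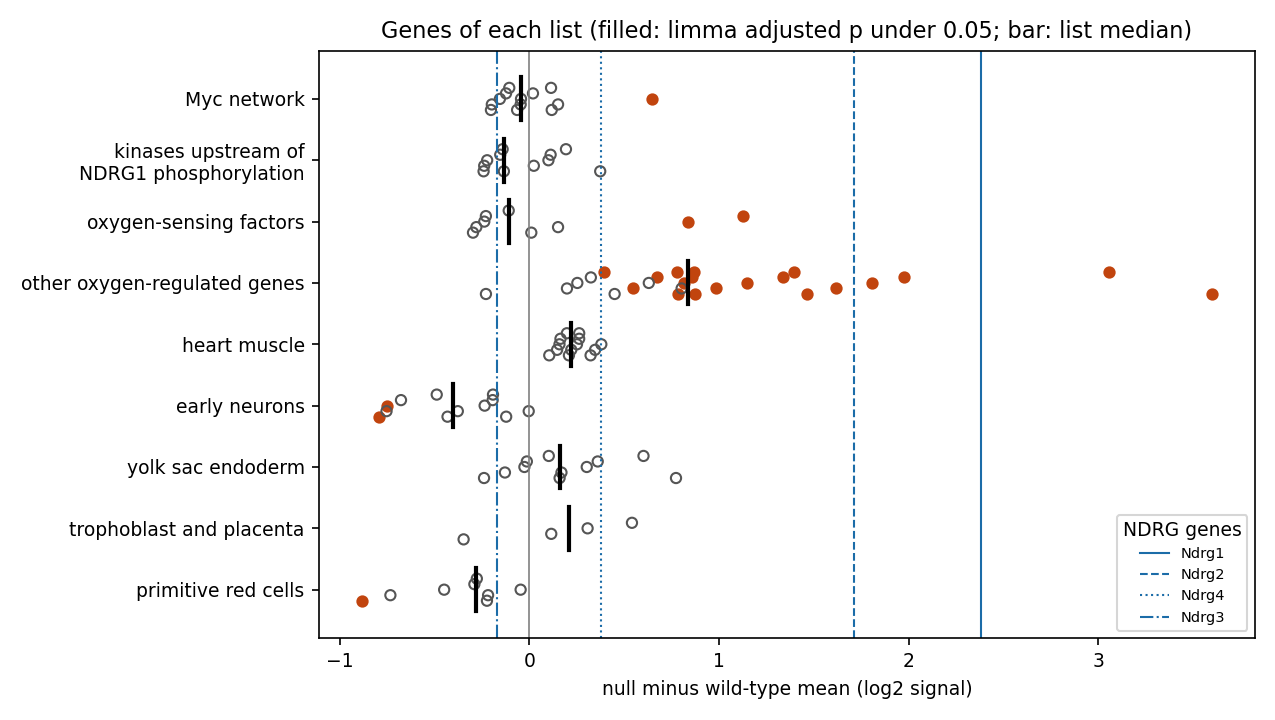
Null minus wild-type difference in log2 level (horizontal axis) of each tested gene of the pathway and marker lists (rows); filled points passed the limma test at an adjusted p under 0.05, black bars are list medians, and vertical lines mark the 4 NDRG genes. The other oxygen-regulated genes have 19 of 26 members called and a median of 0.84; the Myc network, the kinases, the oxygen-sensing factors and the marker lists have medians between -0.40 and 0.22.

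Promoter sequence of the members is given beside their differences. The windows are the 250 bases before each annotated start, from RefSeq (GRCm38.p6, another build than that of the array files); 9 windows cover 3 of the 4 genes, all but Ndrg1. ACGTG and GCGTG, the cores of the sequence that HIF is known to bind, were searched on both strands; CACGTG, the E-box that MYC and MAX are known to bind, contains ACGTG on both strands. Over 32851 windows of the same length, 16.6% held ACGTG, 28.2% GCGTG, 38.6% at least 1 of these, 16.7% at least 2 matches, and 6.02% CACGTG. These shares are for single windows, whereas each gene here has several, so they are no background for a gene's best window. The window with the most matches is printed for each gene, 5′ to 3′ on the gene's strand, with the matches in capitals (a match to GCGTG on the other strand reads CACGC).
Ndrg2, chr14:51913489-51913738, minus strand: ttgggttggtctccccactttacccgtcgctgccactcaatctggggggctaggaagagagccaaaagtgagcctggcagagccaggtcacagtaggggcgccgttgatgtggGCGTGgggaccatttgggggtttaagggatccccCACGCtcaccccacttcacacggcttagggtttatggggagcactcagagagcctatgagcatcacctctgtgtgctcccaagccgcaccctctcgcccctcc
Ndrg3, chr2:156991704-156991953, minus strand: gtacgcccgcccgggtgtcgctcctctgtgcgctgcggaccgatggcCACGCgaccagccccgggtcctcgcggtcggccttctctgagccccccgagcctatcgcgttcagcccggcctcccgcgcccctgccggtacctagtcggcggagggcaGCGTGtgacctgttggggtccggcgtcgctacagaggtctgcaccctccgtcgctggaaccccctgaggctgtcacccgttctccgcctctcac
Ndrg4, chr8:95677513-95677762, plus strand: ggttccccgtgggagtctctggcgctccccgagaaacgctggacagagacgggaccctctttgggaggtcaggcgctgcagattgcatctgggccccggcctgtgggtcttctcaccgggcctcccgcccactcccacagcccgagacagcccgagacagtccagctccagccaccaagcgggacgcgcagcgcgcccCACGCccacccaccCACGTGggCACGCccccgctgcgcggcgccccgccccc
The Ndrg2 and Ndrg3 windows printed each hold 2 matches to GCGTG. The Ndrg4 window holds 2 matches to GCGTG and 1 CACGTG, which counts as 2 matches to ACGTG. Of the other windows, 1 of Ndrg2 and 1 of Ndrg4 hold 1 match to GCGTG, the Ndrg2 one overlapping the window printed, and the other 4 hold none. Each of the 3 genes with windows thus had at least 1 window with a match. A part of these matches in any difference was not tested. A match is a run of letters and not a binding site, and no binding was measured.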

How the data were processed

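Total RNA of 8 pools of embryos was labelled with Cy3 and hybridised to one-colour Agilent arrays. The authors deposited scanner output of Feature Extraction 9.5.3.1 (protocol GE1-v5_95_Feb07, per the file headers), in which the processed signal is an intensity after the scanner software's background correction, and a value table on a log2 scale by the match of its columns to the arrays (correlations of at least 0.988); the sources used here do not give how that deposited log2 table was normalized. Its column medians were 9.44 to 9.47.

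Control spots (1639 of 45018) and outlier spots (87 to 175 per array) were left out, spots of a probe were averaged, and log2 processed signal was set against each array's 75th percentile (1280 to 1703 in intensity). A probe well above background on 4 or more of the 8 arrays was kept (25555 of 41174), and the brightest kept probe stood for a gene. Of the probes, 22951 were named through an accession in a RefSeq table, 6659 by current symbol, 3109 by an older name and 8455 as in the files. limma 3.58.1 in R 4.3.3 (lmFit, eBayes, genotype only) tested 17099 genes, with Benjamini-Hochberg adjustment and a threshold of 0.05; 718 were called, 487 higher and 231 lower. The scripts were tested on simulated data. The number of arrays, 4 per group, limits the precision.

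The members, the gene lists and the alternatives were chosen with earlier results of these data known. Named were all member probes; up to 3 called genes per list by smallest adjusted p, or the gene with the smallest p; the 6 genes nearest to Ndrg1, leaving out clone and predicted names; and Arid3b. Myc, Mycn, Sgk1, Hif1a, Egln2 and Mapkap1 were named for their role or for a change of call. Same-numbered pools of the 2 genotypes deviated together (correlations 0.557, 0.635, 0.522 and 0.426 over 17099 genes). The numbers are taken from the labels. Numbers 1 and 2 share a slide, as do 3 and 4, and pools of different number on one slide were not compared. These correlations therefore cannot tell pairing by number from an effect of the slide. Alternatives were other scalings, normexp background correction (offset 50), other probe filters, the mean of a gene's probes, the deposited table, replicate and slide blocks, single slides and leaving out each pool.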

Additional observations from a re-analysis of the deposited data

Results flagged for a closer look

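Over 52 groups of 4 pools checked, 4 held a pool set apart from the other 3, where the gap to the nearest pool over the group's range was above the Dixon 95% critical value; chance gives about 1 in 20 such groups. For the second Ndrg4 probe, null pool 1 was the highest null pool (ratio 0.928), at a relative log2 level of -5.78 against -5.95 for the next, with no null pool well above background. For Arid3b, null pool 4 was the highest null pool (ratio 0.903), at 2.48 against 1.89 for the next. For Rbp4, null pool 4 was the lowest null pool (ratio 0.897), at 2.69 against 3.23. For Neurod4, wild-type pool 2 was the highest wild-type pool (ratio 0.84), at -4.99 against -5.27. None of these was among the pools of Ndrg1, Ndrg2, Ndrg3 or the first Ndrg4 probe.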

How the results depend on the processing

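The differences of Ndrg1, Ndrg2, Ndrg3 and Ndrg4 kept their direction under all 20 alternatives, and 1 value moved by more than the spread between pools: Ndrg4 with normexp background correction, at 0.25. Leaving out 1 pool gave 2.28 to 2.50 for Ndrg1, 1.55 to 1.82 for Ndrg2, -0.21 to -0.13 for Ndrg3 and 0.34 to 0.41 for Ndrg4. The count of called genes, 718, was 157 without scaling, 0 with normexp, 164 without the filter on dim probes, 462 in the deposited table, 1370 with a slide block, and 0 and 0 within single slides, where 2 pools per group were left; it was 93 to 628 when 1 pool was left out, and every pool except null pool 4 moved it by over 1.5 times. The Myc network had 0 called genes without scaling, with normexp, without the filter and within each slide, and 0 to 1 with 1 pool left out. The oxygen-sensing factors had 1 called with median scaling, 1 without scaling, 0 with normexp, 0 without the filter and 0 within each slide, and 0 to 2 with 1 pool left out. The other oxygen-regulated genes had 12 called without scaling, 0 with normexp and 0 within each slide, and 12 to 19 with 1 pool left out. Ascl2 reversed to -0.032 with normexp. With the replicate block, which follows the pool numbers, 2343 genes were called and 1 of the kinase list. That block called 3 oxygen-sensing factors, 24 other oxygen-regulated genes and 3 neuron markers. Except where fewer pools were used, the cause of these changes was not tested. For the second Ndrg4 probe, which was near background, neither a fold nor a bound is given. For Neurod4, which no null pool read well above background, only a bound is given.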
